A study of Mus musculus with 16 samples.

Results

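The genes described here encode NMDA and kainate receptor subunits, which were chosen by symbol: Grin1, Grin2a, Grin2b, Grin2d and Grin3a for the NMDA family and Grik1, Grik2, Grik3, Grik4 and Grik5 for the kainate family. All 10 were among the 24539 genes of the deposited count table. RNA came from GFP-positive cells cut by laser from the brains of 16 mouse embryos, after the dams had received cypermethrin, restraint stress, both exposures or neither. Each group held 4 embryos. Every embryo was of the CD1 strain and GAD67-GFP+/- genotype, was taken at embryonic day 14.5 from a separate litter and was recorded as male.

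In the cypermethrin group, dams received alpha-cypermethrin, a pyrethroid insecticide, at 10 mg/kg by gavage on gestational days 11 to 14 and were not restrained. In the stress group, dams received corn oil and were restrained under bright light in 3 sessions a day of 45 min on days 12 and 13, with a last session on day 14. Dams of the group with both exposures received cypermethrin and the same restraint. In the vehicle group without stress, dams received corn oil alone. All dams had the last gavage 90 min before euthanasia, and restraint ended 15 min before it. The GFP reporter marks cells with activity of the Gad1 locus, the gene of the GABA-synthesising enzyme GAD67, and about 1000 cells per embryo were cut from sections at the front of the migrating stream in the cortical plate. The cells were picked by position and fluorescence from fixed sections, so RNA of neighbouring cells can be in the capture.

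NMDA and kainate receptors are ion channels opened by glutamate. NMDA receptors need the Grin1 product, which binds glycine or D-serine, together with glutamate-binding subunits from the Grin2 genes or glycine-binding subunits from the Grin3 genes. In the embryonic forebrain Grin2b is known as the main Grin2 gene, and Grin2a comes up after birth. Kainate receptors can be built from the products of Grik1, Grik2 and Grik3, whereas the products of Grik4 and Grik5 raise the affinity for kainate but need one of the other three to form a channel. Both receptor families are known to be present in migrating cortical interneurons, where they respond to ambient glutamate.

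The kainate genes at the 2 ends of the levels reported below were Grik3 and Grik4, and their promoters are shown because both were rich in CG dinucleotides although the levels were far apart. Each sequence is the 300 bases from 250 before to 50 after the RefSeq start of the gene, read on the gene's strand, with each CG in capitals. The Grik3 sequence is chr4:125490446-125490745 on the plus strand and the Grik4 sequence is chr9:42944322-42944621 on the minus strand of GRCm38.p6.
Grik3: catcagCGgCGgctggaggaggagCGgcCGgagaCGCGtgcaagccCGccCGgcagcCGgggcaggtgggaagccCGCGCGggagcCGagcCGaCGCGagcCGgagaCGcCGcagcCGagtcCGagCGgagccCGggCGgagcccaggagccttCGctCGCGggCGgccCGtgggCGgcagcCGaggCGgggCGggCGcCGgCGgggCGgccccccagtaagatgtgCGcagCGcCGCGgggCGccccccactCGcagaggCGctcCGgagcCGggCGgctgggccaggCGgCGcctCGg
Grik4: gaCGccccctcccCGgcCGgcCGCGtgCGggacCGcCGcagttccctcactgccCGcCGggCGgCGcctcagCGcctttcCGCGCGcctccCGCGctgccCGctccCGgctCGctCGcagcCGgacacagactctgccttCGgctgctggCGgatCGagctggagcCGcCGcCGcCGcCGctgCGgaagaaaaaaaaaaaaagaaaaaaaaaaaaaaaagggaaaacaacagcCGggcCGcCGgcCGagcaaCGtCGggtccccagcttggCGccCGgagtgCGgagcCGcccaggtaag
The Grik3 promoter held 50 CG dinucleotides and the Grik4 promoter 42, against a median of 7 over 32851 RefSeq promoters of this length. Only the letters CG were searched, which read the same on both strands, and 94.6% of the promoters held at least 1. The count was higher than in 99.1% of promoters for Grik3 and 97.0% for Grik4. RefSeq promoters matched 6 of the 10 genes, and the other 4 of these held 33 for Grin1, 26 for Grik2, 12 for Grin2d and 10 for Grik5. Grik5, whose level was among the highest, had a CG count near the middle of all promoters, above 56.5% of them. The CG counts of the 6 genes did not follow the order of their levels.

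Total counts per library ran from 2291283 to 4324129. A date-like code in the library descriptions divided the libraries into 7 and 9. The library labelled stress replicate 1 had 9521 Xist counts, against at most 26 in any other library, which goes against its label as male, so several results that include it are also given without it. All 17 interneuron marker genes passed the filter on low counts and summed to between 1795 and 2893 CPM (counts scaled to a common library size, with TMM normalisation). The 11 glutamatergic neuron markers summed to between 4499 and 7574 CPM and the 7 Cajal-Retzius cell markers to between 1734 and 3350 CPM. The 11 pericyte and meningeal markers summed to between 1626 and 4824 CPM and the 7 endothelial markers to between 112 and 501 CPM. RNA of genes that mark those cell types was thus present in every library. The pericyte, meningeal and endothelial sums were not compared with the subunit genes. The labels call the cells neural progenitors, and 10 of 11 progenitor markers passed the filter, at unlike levels. Nes averaged 393 CPM over the 16 libraries, Vim 246, Mki67 179, Top2a 91.7 and Slc1a3 57.9. Fabp7 averaged 28.3 CPM, Sox2 21.6, Pax6 8.43, Hes1 4.02, Eomes 1.71 and Hes5 0.143. Whether the captured cells were progenitors was not tested. In such material fewer cells of a type and less RNA per cell cannot be told apart.

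Of the 10 subunit genes, 8 passed the filter. All 5 kainate genes did so, but only Grin1, Grin2b and Grin3a of the 5 NMDA genes. Scaled by the length of the longest coding transcript, Grik3 had the highest level at 45.1 ± 9.95 CPM per kilobase (SD, n = 16 libraries). Grik5 averaged 29.3 ± 8.49, Grik1 19.2 ± 7.61, Grin2b 14.8 ± 3.95 and Grik2 12.5 ± 4.02 CPM per kilobase. Grin1 followed at 4.18 ± 2.17 and Grin3a at 2.07 ± 1.48 CPM per kilobase. Grik4, Grin2d and Grin2a were lowest, at 0.254 ± 0.390, 0.177 ± 0.233 and 0.0684 ± 0.104 CPM per kilobase.

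Not every step in this order held within libraries. Grik3 was above Grik5 in 15 of 16 libraries and Grik5 above Grik1 in 14. Grik1 was above Grin2b in 11 and Grin2b above Grik2 in 9, so these neighbours were not separated. Grik2 was above Grin1 in all 16 and Grin1 above Grin3a in 13. Grin3a was above Grik4 in 15. Grik4 was above Grin2d in only 4 and Grin2d above Grin2a in 9, with both at 0 in some libraries, so these genes were not separated either. The middle of the order also rested on the length used. Scaled by coding length instead, Grin2b ranked just below Grik3 at 80.1 ± 21.4 CPM per kilobase, and scaled by the union of all exons it ranked below Grik3 and Grik5 at 14.3 ± 3.82. Grik3 stayed highest, and Grin1 and Grin3a kept ranks 6 and 7, with each of the 3 lengths, and the comparison of lengths was added after the values had been seen.

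**Figure D1:**
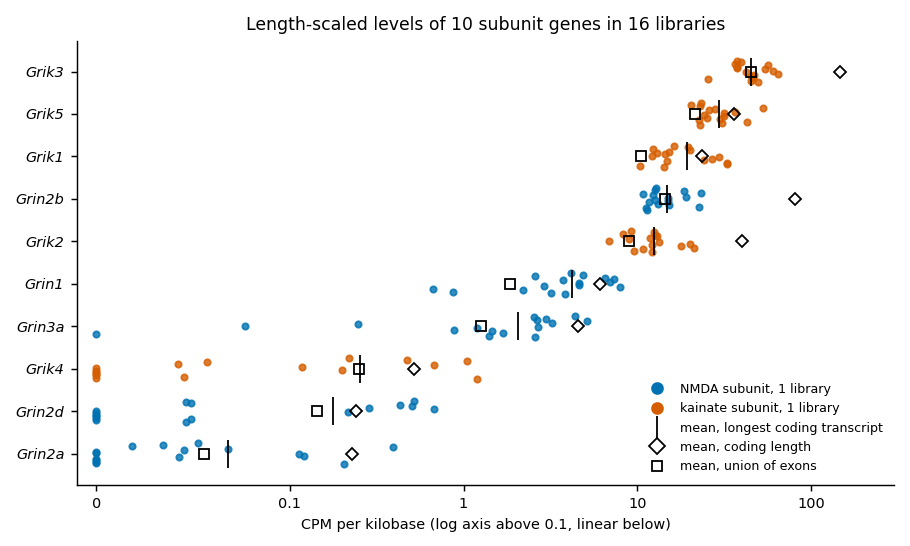
Level of each subunit gene in CPM per kilobase (horizontal axis, logarithmic above 0.1), with 1 point per library, n = 16, on the longest coding transcript. The vertical tick, diamond and square are means with 3 definitions of length, and Grik3 leads with each of them while Grik4, Grin2d and Grin2a lie at the bottom.

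Within the NMDA family, Grin2b made up most of the length-scaled RNA, with 69.8 ± 12.4% over the 16 libraries, ranging from 45.5% to 96.1%. Grin1, the subunit that every NMDA receptor contains, made up 19.4 ± 9.03% and Grin3a 9.85 ± 6.56%. Grin2d, a subunit known from interneurons at later ages, made up 0.734% and Grin2a 0.295%. Per kilobase, Grin2b exceeded Grin1 in all 16 libraries, by 1.46-fold to 25.9-fold with a median of 3.29-fold. With coding length this ratio ran from 5.45 to 96.3 and with the union of exons from 3.22 to 56.8. The Grin1 count is uncertain, since its exons overlap those of the antisense gene Grin1os and use of strand in the counting is not stated.

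Within the kainate family, Grik3 made up 42.5 ± 6.77%, Grik5 27.5 ± 5.59%, Grik1 17.9 ± 5.87% and Grik2 11.7 ± 2.99%. Grik4 made up 0.277%. Among the 2 genes whose products need a partner, Grik5 thus accounted for nearly all of the RNA. With coding length the shares were 59.3% for Grik3, 16.2% for Grik2, 14.7% for Grik5 and 9.58% for Grik1, so Grik2 moved ahead of Grik5 and Grik1 while Grik3 stayed in front. The per-library shares show the lowest share of Grik3, 22.7%, in cypermethrin replicate 3, which also had the highest share of Grin2b.

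**Figure D2:**
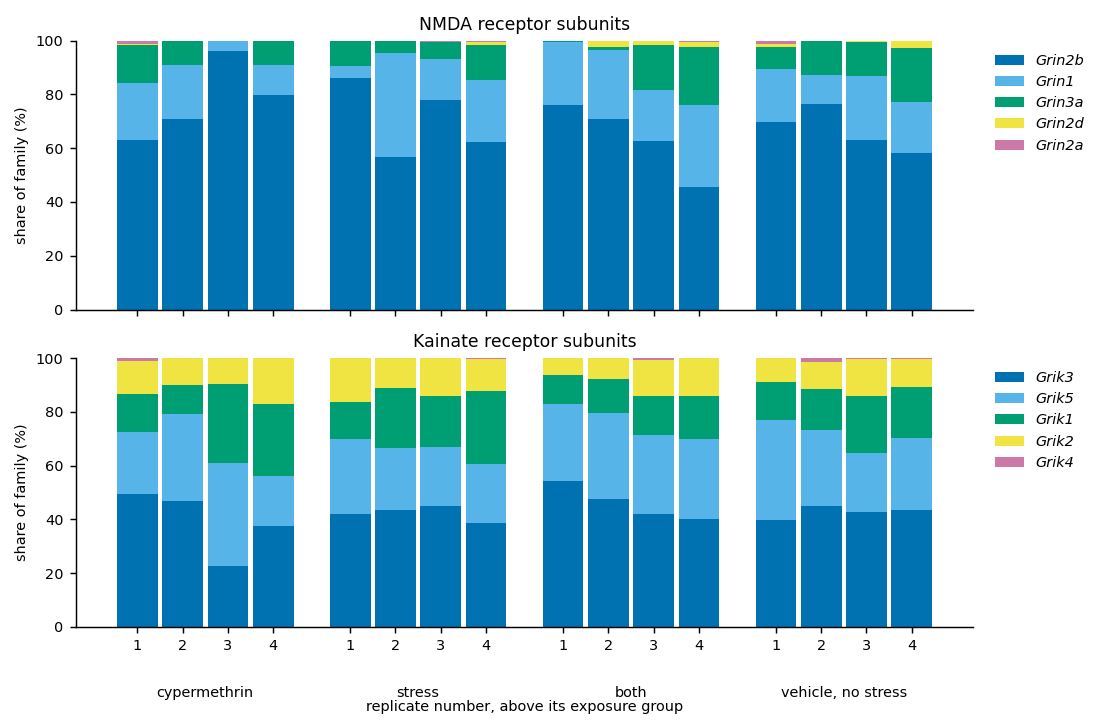
Share of each subunit in the length-scaled level of its family (vertical axis, percent) in each of the 16 libraries, by exposure group. Grin2b fills 45.5% to 96.1% of the NMDA bars and Grik3 22.7% to 54.2% of the kainate bars.

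The question of the study's design is whether either exposure, or their combination, changed RNA levels in these cells. By edgeR's quasi-likelihood test, 0 of the 8 subunit genes reached an adjusted p (Benjamini-Hochberg) under 0.05 in any of 8 comparisons, and 0% of the 13224 genes tested did. At an unadjusted p under 0.05 edgeR placed 3.71% of all genes for cypermethrin against vehicle without stress, 5.08% for stress, 1.49% for both exposures and 4.31% for stress against no stress under cypermethrin, with 0 subunit genes in each. DESeq2 and limma voom called 0 subunit genes as well. The groups overlapped in CPM for all 8 subunit genes in each of the 5 comparisons between 2 groups. Over all tested genes, 2.52% had groups that did not overlap for cypermethrin against vehicle without stress, 2.9% for stress and 2.62% for both exposures. The share was 3.04% for cypermethrin against vehicle under stress and 2.58% for stress against no stress under cypermethrin. The last 2 comparisons were added after values had been seen. The first 3 comparisons share the same vehicle libraries. P-values measure the spread between embryos of separate litters.

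**Figure D3:**
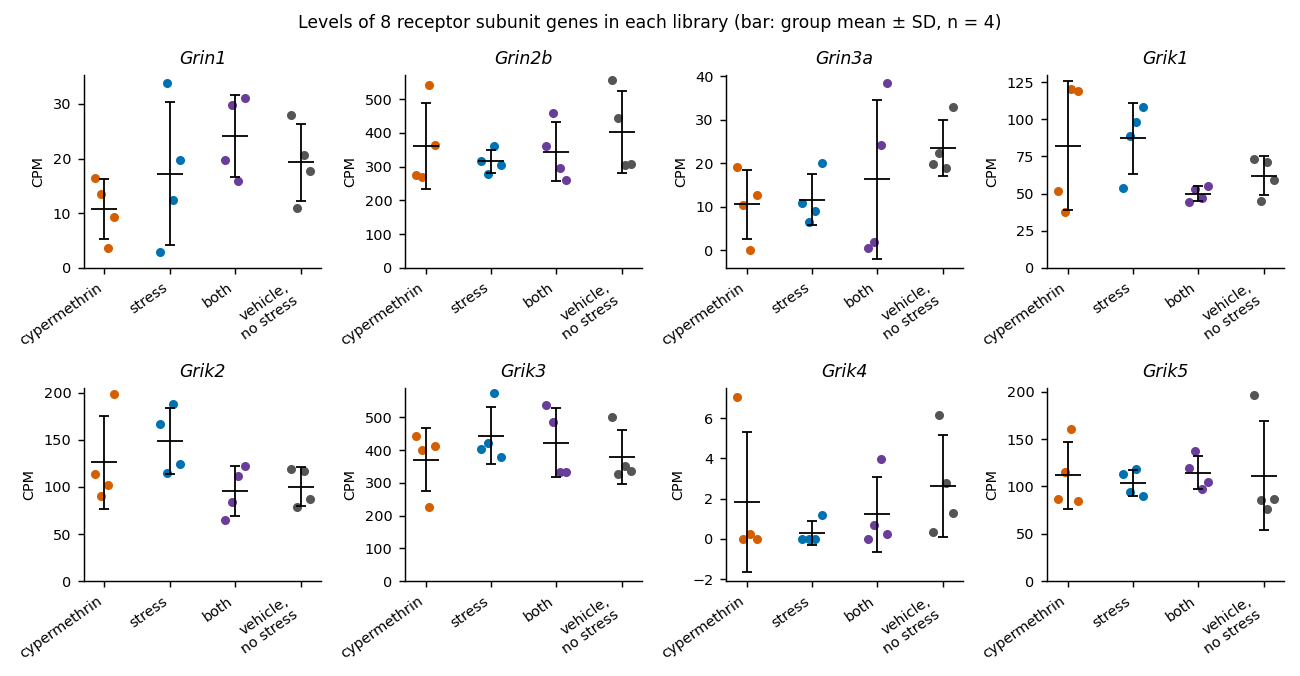
CPM of the 8 tested subunit genes (vertical axes, each from its own range) in each library, by exposure group, with bars for the mean ± SD, n = 4. The groups overlap in every panel.

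Among the NMDA genes, Grin1 had 16.4, 13.6, 3.72 and 9.34 CPM in the cypermethrin group and 2.85, 33.8, 12.5 and 19.8 CPM in the stress group. It had 19.6, 29.8, 15.9 and 31.2 CPM with both exposures, and 27.9, 11.0, 20.7 and 17.8 CPM in the vehicle group without stress. The lowest value was that of stress replicate 1, the library with high Xist. The log2 difference from vehicle without stress was -0.84 ± 0.63 (SE) for cypermethrin, -0.16 ± 0.62 for stress and 0.32 ± 0.62 for both exposures, with edgeR adjusted p of 0.999, 1 and 1. Without that library the difference for stress was 0.19, and the interaction was 0.96, against 1.32 with it.

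Grin2b, the gene of the main glutamate-binding subunit before birth, had 275, 268, 541 and 364 CPM in the cypermethrin group and 317, 279, 362 and 305 CPM in the stress group. It had 361, 460, 296 and 260 CPM with both exposures, against 557, 444, 305 and 308 CPM in the vehicle group without stress. All groups overlapped, and the highest values were in vehicle replicate 1 and cypermethrin replicate 3. Its log2 differences from vehicle without stress were the most precise among the NMDA genes, at -0.16 ± 0.23 for cypermethrin, -0.35 ± 0.23 for stress and -0.23 ± 0.23 for both. Their 95% intervals ran from -0.63 to 0.32, from -0.82 to 0.12 and from -0.70 to 0.24.

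Grin3a, whose product binds glycine and lowers calcium flow through the channel, varied most among the 3. It had 19.2, 10.5, 0 and 12.6 CPM in the cypermethrin group and 10.9, 6.58, 8.90 and 20.0 CPM in the stress group. With both exposures it had 0.578, 1.85, 24.3 and 38.4 CPM, against 19.9, 22.4, 18.9 and 32.9 CPM in the vehicle group without stress. The group with both exposures thus split into a low and a high pair of libraries. The low pair carried the description code of the 7 libraries and the high pair that of the 9. The codes did not divide the other groups in this way. Cypermethrin replicate 1, which carried the code of the 7, was the highest of its group at 19.2 CPM. In the stress group and the vehicle group without stress the libraries of the codes overlapped. A count of 0 in cypermethrin replicate 3 allows up to 3 counts, or 0.797 CPM. The log2 difference from vehicle without stress was -1.16 ± 0.93 for cypermethrin, -1.01 ± 0.92 for stress and -0.53 ± 0.91 for both, and the adjusted p by edgeR was 0.999, 0.985 and 1. With limma voom the difference was -2.55 for cypermethrin (unadjusted p = 0.0227) and -1.85 for both exposures (unadjusted p = 0.0548), and its adjusted p was 0.999 and 1. Without replicate 4 of the group with both exposures, edgeR gave -1.39 for both exposures.

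Grin2a and Grin2d had too few counts to pass the filter. Grin2a had 56 counts over all libraries, at most 17 in any, and was seen in 10 of 16. Grin2a was seen in 1 library of the cypermethrin group, 3 of the stress group, 2 of the group with both exposures and 4 of the vehicle group without stress. Grin2d had 61 counts in all, at most 16 in any library, and was seen in 2, 1, 3 and 4 libraries of these groups. Grin2d had 0.252, 0, 0.266 and 0 CPM in the cypermethrin group and 0, 0, 0 and 1.18 CPM in the stress group. In the group with both it had 0, 3.69, 1.55 and 2.74 CPM, against 2.36, 0.267, 0.252 and 2.83 CPM in the vehicle group without stress. For these 2 genes, a library with 0 counts allows a level of up to 0.692 to 1.43 CPM, depending on its size. When edgeR was fitted without the filter, the interaction was 5.57 for Grin2d (unadjusted p = 0.034, adjusted p = 0.766) and -0.06 for Grin2a (unadjusted p = 0.971). With so few counts the size of such fitted values is no measure of a fold, and neither gene was called in any of the 8 comparisons.

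Among the kainate genes, Grik3 showed narrow intervals. It had 442, 401, 228 and 413 CPM in the cypermethrin group and 402, 422, 573 and 379 CPM in the stress group. With both exposures it had 538, 486, 334 and 334 CPM, against 503, 326, 352 and 336 CPM in the vehicle group without stress. All groups overlapped, and the lowest library was cypermethrin replicate 3. The 95% interval of the log2 difference from vehicle without stress was -0.47 to 0.41 for cypermethrin, -0.21 to 0.67 for stress and -0.28 to 0.60 for both.

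Grik5, the high-affinity partner subunit, had 86.5, 115, 160 and 85.0 CPM in the cypermethrin group and 113, 94.0, 118 and 90.3 CPM in the stress group. With both exposures it had 119, 138, 97.4 and 104 CPM, against 197, 85.7, 76.2 and 87.0 CPM in the vehicle group without stress. Vehicle replicate 1 was far above the other 3 libraries of its group. Without it, the log2 difference of stress from vehicle was 0.33, against -0.10 with all libraries, and that of both exposures 0.47, against 0.04.

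Grik4, the other partner subunit, had 7.06, 0, 0.266 and 0 CPM in the cypermethrin group and 0, 0, 0 and 1.18 CPM in the stress group. With both exposures it had 0, 0.692, 3.97 and 0.249 CPM, against 0.337, 6.14, 2.78 and 1.29 CPM in the vehicle group without stress. It passed the filter with 96 counts in all, so single libraries decided its fitted values. Of the 29 counts in the cypermethrin group 28 came from replicate 1, and all 5 counts in the stress group came from replicate 4. The fitted log2 difference from vehicle without stress was -0.49 ± 1.55 for cypermethrin, -2.85 ± 1.72 for stress and -1.07 ± 1.56 for both exposures, with edgeR adjusted p of 0.999, 0.966 and 1.

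Grik1 and Grik2 encode subunits that can form channels on their own. Grik1 lies on chromosome 16 from 87895900 to 88290265 and Grik2 on chromosome 10 from 49094833 to 49788766, both on the minus strand of mm10. Both gave an unadjusted p under 0.05 for the interaction of the exposures, that is, for the effect of cypermethrin under stress minus its effect without stress. Grik1 had 51.7, 37.9, 120 and 119 CPM in the cypermethrin group and 53.7, 88.6, 98.3 and 108 CPM in the stress group. With both exposures it had 44.2, 52.8, 47.0 and 55.3 CPM, against 73.4, 44.9, 71.4 and 58.9 CPM in the vehicle group without stress. The 4 libraries with both exposures lay close together at the low end. The cypermethrin group split into a low and a high pair.

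Grik2 had 114, 90.0, 102 and 199 CPM in the cypermethrin group and 167, 115, 188 and 125 CPM in the stress group. With both exposures it had 64.7, 83.7, 112 and 122 CPM, against 119, 78.3, 117 and 86.7 CPM in the vehicle group without stress. The group with stress alone averaged 149 ± 34.6 CPM and its lowest library, at 115 CPM, lay within the range of every other group.

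The interaction was -1.21 ± 0.50 on the log2 scale for Grik1 (95% interval -2.23 to -0.19, unadjusted p = 0.0218) and -0.96 ± 0.40 for Grik2 (-1.79 to -0.14, unadjusted p = 0.024). The adjusted p by edgeR was 0.985 for both, so neither passed the test. Over all genes 4.7% had an unadjusted p under 0.05 for the interaction, and 3.09% in this direction, which is 409 of 13224 genes, these 2 included. The interaction values of the other tested members were 1.32 ± 0.88 for Grin1, 0.28 ± 0.32 for Grin2b, 1.64 ± 1.30 for Grin3a, -0.04 ± 0.30 for Grik3, 2.27 ± 2.27 for Grik4 and 0.14 ± 0.42 for Grik5. The median of the 3 NMDA genes, 1.32, is the value of Grin1, which was 0.96 without the library with high Xist. For the 5 kainate genes the median was -0.04, beside -0.04 over all genes tested.

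Taken apart into simple effects, cypermethrin against vehicle under stress gave -0.81 ± 0.35 for Grik1 and -0.63 ± 0.28 for Grik2 (unadjusted p = 0.0298 and 0.0343, edgeR adjusted p = 0.902 for both). Over all genes, 5.39% had an unadjusted p under 0.05 in this comparison. Stress against no stress under cypermethrin gave -0.72 ± 0.35 for Grik1 and -0.40 ± 0.28 for Grik2 (edgeR unadjusted p = 0.0509 and 0.176, adjusted p = 0.997 for both). Cypermethrin against vehicle without stress gave 0.40 ± 0.35 for Grik1 and 0.33 ± 0.28 for Grik2, and stress against no stress without cypermethrin gave 0.49 ± 0.35 and 0.57 ± 0.28. In cypermethrin and in stress libraries the mean level of both genes was therefore above that of vehicle libraries, within the spread of the replicates. Leaving out 1 library at a time kept the sign of both interactions, with -1.45 to -0.97 for Grik1 (unadjusted p 0.00551 to 0.0583) and -1.10 to -0.67 for Grik2 (0.0133 to 0.0864). Without stress replicate 1, the library with high Xist, they were -1.39 for Grik1 and -0.91 for Grik2, and cypermethrin against vehicle under stress was -0.98 and -0.58. Stress against vehicle without stress was then 0.66 and 0.51. Within the 7 libraries that share a description code the interaction as a difference of mean log2 CPM was -0.36 for Grik1 and -1.14 for Grik2, within the other 9 it was -1.34 and -0.66, and over all 16 it was -1.01 and -0.93. The code of the 7 holds 1 library of the cypermethrin group, so these values carry no test.

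**Figure D4:**
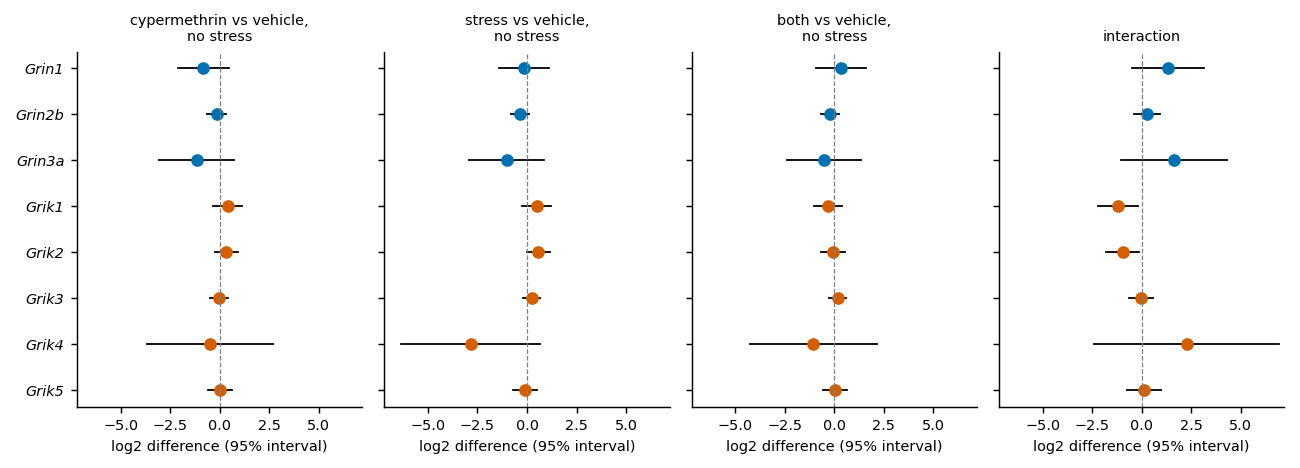
Log2 difference (horizontal axes) of the 8 tested subunit genes with its 95% interval from edgeR, for each exposure group against vehicle without stress and for the interaction, n = 4 libraries per group. Only the interaction intervals of Grik1 and Grik2 lie to one side of 0, before adjustment over the 13224 genes.

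Averaged over the other exposure, no subunit gene had an unadjusted p under 0.05 by edgeR, while limma voom gave Grin3a -1.68 for cypermethrin (unadjusted p = 0.0329, adjusted p = 0.997). By edgeR the log2 difference for cypermethrin ran from -0.34 for Grin3a to 0.65 for Grik4, and 4.59% of all genes had such a p. For stress it ran from -1.72 for Grik4 to 0.50 for Grin1, with 5.13% of all genes. The intervals were narrowest for Grik3, at -0.36 to 0.26 for cypermethrin and -0.10 to 0.52 for stress, and for Grin2b, at -0.35 to 0.32 and -0.55 to 0.12.

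Levels of the members were compared over the 16 libraries in 28 pairs, and with 3 marker sums in 24 more. Of the 28 member pairs 11 had a positive Pearson's r, with a median of -0.09 and a range of -0.51 to 0.69. Grik1 and Grik2 gave r = 0.59 and Spearman's rho = 0.63 (permutation p = 0.0158 and 0.0105, adjusted over the 52 pairs 0.164 and 0.273), with r = 0.60 without the 2 libraries farthest from the median of Grik1. Grin2b and Grik5 gave r = 0.69 and rho = 0.38 (permutation p = 0.00337 and 0.144, adjusted 0.0876 and 0.470). That r was 0.28 without the 2 libraries farthest from the median of Grin2b, so its size depended on them. Within the 7 and 9 libraries of the 2 description codes r was 0.72 and 0.60, and without the library with high Xist 0.70.

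One of the 52 pairs passed the adjustment, that of Grik1 with the summed level of 7 genes used as markers of Cajal-Retzius cells, the reelin-producing neurons of the cortical surface. Pearson's r was 0.74 and Spearman's rho 0.76 (permutation p = 0.00091 for each, adjusted p = 0.0473). The permutations ran over all 16 libraries without regard to exposure group, and the adjusted p lay close to 0.05. Pearson's r was 0.74 without the 2 farthest libraries, 0.66 and 0.82 within the 7 and 9 libraries of the 2 description codes, and 0.78 without the library with high Xist. The values for single genes and for the sum without Reln were added after the data had been seen and carry no test. The single genes differed, with r = 0.72 for Trp73, 0.72 for Reln and 0.51 for Cacna2d2, but 0.28 for Ebf3, 0.21 for Lhx5, 0.12 for Lhx1 and -0.08 for Calb2. The sum was mostly Reln, which averaged 2263 CPM over the 16 libraries. Cacna2d2 averaged 138 CPM, Ebf3 112, Trp73 54.3, Lhx5 9.57, Calb2 8.38 and Lhx1 6.92. Reln is also made by interneurons, and without it the sum gave r = 0.67. For Grik2 the r with the sum was 0.44 (permutation p = 0.0879, adjusted 0.402). Spearman's rho for Grik2 was 0.57 (permutation p = 0.0229, adjusted 0.335). Without Reln the sum gave r = 0.63 with Grik2, close to the 0.67 of Grik1. Single genes gave Grik2 r = 0.63 for Ebf3, 0.52 for Trp73, 0.43 for Cacna2d2 and 0.35 for Reln. The r of Grik2 was -0.29 for Lhx5, -0.30 for Lhx1 and -0.355 for Calb2.

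All 7 of these markers were in the table, and passed the filter, and none was at 0 in all libraries. Their sum ran from 1734 to 3316 CPM in the cypermethrin group, 2649 to 3350 in the stress group, 2232 to 2826 with both exposures and 2019 to 2846 in the vehicle group without stress. The medians in this order were 2467, 2828, 2342 and 2612 CPM. The interaction was negative for 4 of the 7, with -0.82 ± 0.61 for Trp73, -0.19 ± 0.22 for Reln, -0.45 ± 0.53 for Ebf3 and -0.87 ± 0.47 for Cacna2d2. It was positive for the other 3, with 0.40 ± 1.62 for Lhx1, 0.73 ± 1.17 for Lhx5 and 0.48 ± 1.34 for Calb2, and the edgeR adjusted p of the 7 lay between 0.985 and 0.996. The part of these cells in the values of Grik1 and Grik2 was not tested. The summed interneuron markers gave r = 0.60 with Grik1 (permutation p = 0.0139, adjusted 0.164), and 0.42 without the 2 farthest libraries. With Grin1 the summed glutamatergic markers gave r = -0.62 and rho = -0.54 (permutation p = 0.0112 and 0.0322, adjusted 0.164 and 0.335). That r was -0.30 without the 2 libraries farthest from the median of the marker sum. Within the 7 and 9 libraries of the description codes it was -0.85 and -0.60, and without the library with high Xist -0.39.

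**Figure D5:**
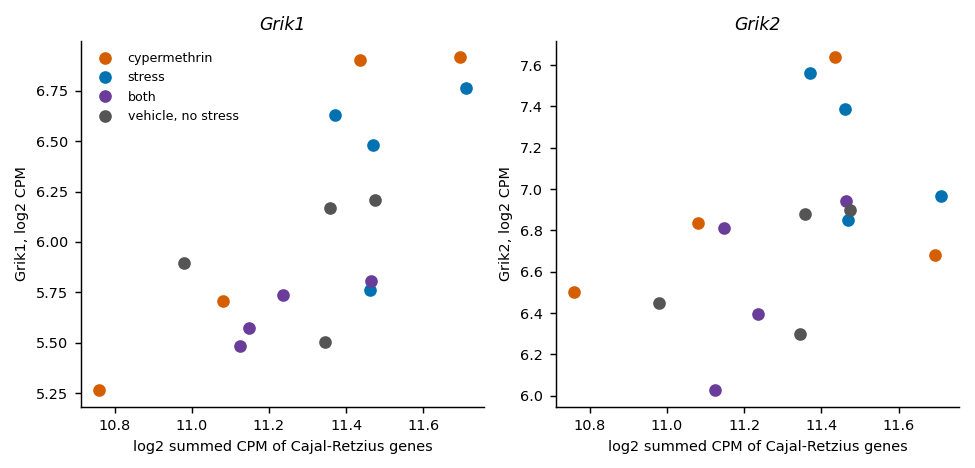
Log2 CPM of Grik1 (left) and Grik2 (right) against the log2 summed CPM of 7 Cajal-Retzius marker genes, 1 point per library, n = 16, coloured by exposure group. Grik1 goes with the marker sum, which is mostly Reln, at r = 0.74 and Grik2 at r = 0.44. With Reln left out of the sum, which is not plotted, r is 0.67 for Grik1 and 0.63 for Grik2.

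Among all other tested genes, the pattern over the 16 libraries most like that of Grik3 was found for Bsn (r = 0.89) and Wdtc1 (r = 0.88). For Grin2b it was found for Rnf169 (r = 0.90) and Psd (r = 0.84), and for Grik2 for Glis3 and Prpf4b (r = 0.88 and 0.84). These are the highest of 13216 values each and carry no test.

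Partner genes of the receptors were taken from 4 lists of 60 genes in all, of which 53 were tested. None was called in any of the 8 comparisons, and for the interaction 3 of 53 had an unadjusted p under 0.05, all 3 lower, beside 4.7% of all genes. The auxiliary subunits of kainate receptors were present in all libraries, with 629 ± 110 CPM for Neto2 and 247 ± 75.0 CPM for Neto1 (SD, n = 16). Of the remaining NMDA genes, Grin2c averaged 0.114 CPM and Grin3b 1.96 ± 1.58 CPM.

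Among the partner genes with the smallest unadjusted p, Sdcbp had a log2 difference of 0.49 for cypermethrin against vehicle without stress. For stress against vehicle without stress the genes were Grid1 at 2.64, the vesicular glutamate transporter Slc17a7 at 1.60 and Pick1, a scaffold that binds AMPA and kainate receptor subunits, at -1.27. Without stress replicate 1, the library with high Xist, the values were -0.34 for Grid1 and 0.35 for Slc17a7. Grid1 had up to 196 CPM in the stress group and at most 15.2 CPM in the vehicle group without stress. Pick1 ran from 7.83 to 13.0 CPM in the stress group and from 15.4 to 30.3 CPM in the vehicle group without stress, with no overlap, and its edgeR adjusted p was 0.965. In this comparison 1.66% of all genes lay wholly below in the same way.

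For both exposures they included Dlg1 at 0.46, or 0.20 without replicate 1 of the group with both, and Shank2 at -0.63, or -0.27 without vehicle replicate 1. For the interaction they were Grid1 at -3.85, Sdcbp at -0.84 and the AMPA receptor subunit gene Gria3 at -0.92 (edgeR adjusted p = 0.985 for each). Without stress replicate 1 these were -0.88 for Grid1, -0.65 for Sdcbp and -0.28 for Gria3. For cypermethrin averaged over stress they included the synaptic scaffold genes Shank1 at -0.34 and Shank3 at -0.80, the second being -0.36 without vehicle replicate 1. For stress averaged over cypermethrin they were Shank1 at 0.36, Pick1 at -0.79 and Slc17a7 at 0.83, which was 0.20 without stress replicate 1. None of these passed the test.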

How the data were processed

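RNA was sequenced from 16 laser-captured samples with a kit for small inputs of total RNA, per the labels' protocols. What the authors deposited is a single count table, in whole reads by gene symbol, that lists 24539 genes, of which 18733 had a count. Alignment used STAR 2.5 and mm10, per the submitters' processing notes, and the counting tool, its annotation and its use of strand are not stated in the labels or the file.

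Groups follow the exposure labels, and replicate numbers follow accession order. The receptor genes and all gene lists were chosen with earlier results of these data known. In R 4.3.3, edgeR 4.0.16 kept 13224 genes (filterByExpr, count minimum 10), scaled libraries by TMM and fitted 1 mean per group to all 16 libraries, with Benjamini-Hochberg adjustment over all genes tested. Standard errors are the fitted difference over the root of F. The biological coefficient of variation was 0.586. Totals of 2291283 to 4324129 counts bound precision, and limits from a count of 0 (3 counts) cover counting error only. The fit was tested on simulated counts.

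Levels per kilobase used GENCODE vM21 lengths on mm10, and correlations used 100000 permutations of log2 CPM with a prior count of 2. Promoters came from RefSeq. Named genes were all 10 members, the 3 partner genes with the smallest unadjusted p in each of the 6 comparisons of the design, and the 2 genes most like each of the 3 members with the highest mean CPM; some partner genes that this rule names are not reported here. Alternatives were RLE scaling, no filter, DESeq2 1.42.0, limma 3.58.1 voom, the description code as a term, only the 2 groups compared, and leaving out each library.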

Additional observations from a re-analysis of the deposited data

Results flagged for a closer look

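Of 39 sets of 4 libraries examined for the members, 7 held a library far above its group. The rule flags about 5% of sets by chance only where values are normally distributed. That rate is no measure for sets with few counts, so no excess over chance can be read from these numbers. Grik3 had 503 CPM and Grik5 197 CPM in vehicle without stress replicate 1, and Grin2a had 5.72 CPM there. In cypermethrin replicate 1, Grik4 had 7.06 CPM and Grin2a 3.03 CPM. In stress replicate 4, Grik4 and Grin2d each had 1.18 CPM. The Grin2a, Grin2d and Grik4 values are of 5 to 28 counts, and in 3 of these 5 sets every other library was at 0.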

How the results depend on the processing

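No alternative called a subunit gene. Of 355 log2 differences of members under the 6 alternatives other than leaving out a library, 346 kept their sign, and the cause of the others was not tested. With the description code as a term, Grik3 was 0.029 for cypermethrin against vehicle without stress, Grin2b 0.0164 for cypermethrin averaged over stress and Grik5 -0.0433 for stress against no stress under cypermethrin. With limma voom, Grik5 was 0.0227 for stress against vehicle without stress and 0.0328 for stress averaged over cypermethrin, where Grik1 was 0.0197. With voom, Grik4 was -0.27 for cypermethrin averaged over stress and 0.17 for stress against no stress under cypermethrin, and Grin3a was -0.81 for cypermethrin against vehicle under stress. The interactions of Grik1 (-1.22 to -1.04) and Grik2 (-0.98 to -0.83) kept an unadjusted p under 0.05 with each of the 5 tests run for them other than with a library left out. For stress against vehicle without stress, Grik2 had an unadjusted p of 0.0491 by DESeq2 and 0.0381 by edgeR on the 2 groups only. Grik1 also fell under 0.05 in an alternative for stress against no stress under cypermethrin. DESeq2 called 1 gene for cypermethrin averaged over stress (Cpeb1) and 2 for cypermethrin against vehicle under stress (Dnajc1 and Tnfrsf22), against 0 by edgeR. Without stress replicate 3 edgeR called Dnajc1 in both, so counts ran from 0 to 1 over the libraries left out. Without the filter, genes at an unadjusted p under 0.05 numbered 649 to 1275 per comparison, against 197 to 713 with it.

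With 1 library left out, 63 of 1024 member differences changed sign, all uncalled. For cypermethrin against vehicle without stress, the range was -0.41 to 0.045 for Grin2b, -0.12 to 0.15 for Grik3, -4.28 to 0.33 for Grik4 and -0.21 to 0.44 for Grik5. For stress against vehicle without stress, the range was -0.70 to 0.19 for Grin1 and -0.25 to 0.33 for Grik5. For both exposures against vehicle without stress, the range was -0.21 to 0.079 for Grik2 and -0.10 to 0.47 for Grik5. For the interaction, the range was -0.22 to 0.11 for Grik3 and -0.30 to 0.35 for Grik5. For cypermethrin averaged over stress, the range was -0.35 to 0.0903 for Grin1, -0.14 to 0.083 for Grin2b, -0.12 to 0.037 for Grik3, -1.25 to 2.33 for Grik4 and -0.037 to 0.29 for Grik5. For stress averaged over cypermethrin, the range was -0.62 to 0.041 for Grin3a, -0.23 to 0.0069 for Grik1, -3.40 to 0.18 for Grik4 and -0.11 to 0.18 for Grik5. For cypermethrin against vehicle under stress, the range was -0.051 to 0.24 for Grin2b, -0.38 to 0.88 for Grin3a, -0.21 to 0.073 for Grik3 and -0.042 to 5.15 for Grik4. For stress against no stress under cypermethrin, the range was -0.25 to 0.18 for Grin2b, -0.24 to 1.09 for Grin3a, -2.42 to 3.21 for Grik4 and -0.0797 to 0.25 for Grik5. Of the partner genes, Grid1 ran from -0.34 to 3.07 for stress against vehicle without stress. Fitted values of Grik4 with few counts left are no bounds. The embryos came from separate litters and the labels name no pairs, so no paired analysis was made. Depth limits Grin2a, Grin2d and Grik4, whose libraries held at most 28 counts.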
